A study of Homo sapiens with 6 samples.

Results

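The 10 transcripts described here encode the cytosolic and mitochondrial heat shock chaperones HSPE1, HSPD1, HSP90AA1, HSP90AB1, HSPA8, HSPA1A, HSPA1B, HSPH1, DNAJB1 and DNAJA1. They were picked by name from a table of 78686 gene rows, with earlier results of the same libraries known, and all 10 passed the filter on low counts. RNA with poly(A) tails was sequenced from THP-1 cells, an established line from a human monocytic leukaemia. The PTX4-OE cells carried a stably transduced construct that overexpresses PTX4, the gene of the secreted protein pentraxin 4, and the EV cells carried the empty vector, so the cells of both groups had been transduced. Each construct had 3 biological replicates, numbered 1 to 3, grown in the same medium with serum, with no other treatment named and 1 batch given for all 6 libraries. The labels do not say what libraries of the same number share, nor whether a construct's cells were a clone or a pool.

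Chaperones bind proteins that are not yet folded or have lost their fold. HSP70 proteins take hold of exposed stretches with the help of J-domain proteins, which deliver the client and trigger ATP hydrolysis, and of nucleotide exchange factors, which let the client go. HSP90 proteins take over clients that are close to their final shape, such as kinases and steroid receptors, with co-chaperones that set the pace of the cycle. In mitochondria, the HSPD1 barrel (HSP60) encloses a protein under a lid made of HSPE1 (HSP10). Heat and other protein stress raise several of these genes through the transcription factor HSF1, which binds heat shock elements made of repeated GAA units in alternating directions.

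All members are protein coding in GENCODE release 44 on GRCh38. HSPE1 (chr2:197500140-197503449, plus strand) and HSPD1 (chr2:197486584-197516737, minus strand) are read in opposite directions and HSPE1 lies within the annotated bounds of HSPD1. No label states whether reads were counted by strand, and without strand those in overlapping exons cannot be assigned with certainty. HSP90AA1 lies at chr14:102080742-102139699 on the minus strand and HSP90AB1 at chr6:44246166-44253888 on the plus strand. HSPA8 lies at chr11:123057489-123063230 on the minus strand, and the near-identical pair HSPA1A (chr6:31815543-31817946) and HSPA1B (chr6:31827738-31830254) on the plus strand. HSPH1 is at chr13:31134973-31162388 on the minus strand, DNAJB1 at chr19:14514769-14560391 on the minus strand and DNAJA1 at chr9:33025273-33039907 on the plus strand.

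The promoter sequences show which members carry the letters of a heat shock element near an annotated start. RefSeq start sites gave windows from 250 bases before to 50 bases after the start for all 10 members, on GRCh38.p14. A 3-unit element was searched as GAA, TTC and GAA with any 2 bases between units, or as TTC, GAA and TTC spaced likewise, which are each other's reverse complement, and a 2-unit element as GAANNTTC or TTCNNGAA, each its own reverse complement and part of every 3-unit match. The stretches below are RefSeq sequence, 5′ to 3′ on the gene's strand, ending at the base before the start site, with the bases of the GAA and TTC units of a match in capitals. HSPE1 is shown over the 104 bases between its start and the HSPD1 start that faces it (chr2:197500275-197500378, plus strand). HSPD1 is shown at its other RefSeq start (chr2:197499841-197500090, minus strand), HSP90AA1 at the downstream one of its RefSeq starts (chr14:102087045-102087294, minus strand), HSPA8 at its single start (chr11:123062137-123062386, minus strand) and HSPA1B at its own (chr6:31827488-31827737, plus strand).
HSPE1: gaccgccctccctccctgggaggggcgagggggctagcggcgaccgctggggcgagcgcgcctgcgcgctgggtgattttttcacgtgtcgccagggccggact
HSPD1: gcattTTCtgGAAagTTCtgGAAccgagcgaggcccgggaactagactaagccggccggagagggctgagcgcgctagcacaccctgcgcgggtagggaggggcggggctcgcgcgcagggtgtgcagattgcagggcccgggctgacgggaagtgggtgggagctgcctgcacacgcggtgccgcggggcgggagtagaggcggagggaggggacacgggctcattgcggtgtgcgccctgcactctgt
HSP90AA1: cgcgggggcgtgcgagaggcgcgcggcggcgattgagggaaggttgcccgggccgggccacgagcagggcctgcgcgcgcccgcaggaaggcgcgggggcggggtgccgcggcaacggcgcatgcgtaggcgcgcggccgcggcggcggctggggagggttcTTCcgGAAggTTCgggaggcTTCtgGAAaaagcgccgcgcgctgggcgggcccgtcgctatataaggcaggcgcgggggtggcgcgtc
HSPA8: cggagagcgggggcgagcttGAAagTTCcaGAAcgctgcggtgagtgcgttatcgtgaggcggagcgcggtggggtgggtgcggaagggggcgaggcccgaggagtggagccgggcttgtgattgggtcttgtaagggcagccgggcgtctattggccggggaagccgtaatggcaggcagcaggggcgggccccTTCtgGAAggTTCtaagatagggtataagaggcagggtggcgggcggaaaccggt
HSPA1B: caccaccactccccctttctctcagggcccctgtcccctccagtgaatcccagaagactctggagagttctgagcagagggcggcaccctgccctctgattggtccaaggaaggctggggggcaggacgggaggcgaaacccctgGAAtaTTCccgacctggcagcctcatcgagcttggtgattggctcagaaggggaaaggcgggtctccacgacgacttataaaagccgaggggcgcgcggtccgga

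A 3-unit match stood in at least 1 window of 5 of the 10 members, namely HSPD1, HSP90AA1, HSP90AB1, HSPA8 and DNAJA1. Over the whole promoter table it stood in 166 of 27305 genes, or 0.608%. The 2-unit match was in 8 of 10 members (80.0%) and in 16.2% of all genes, and HSPA1A, HSPA1B and DNAJB1 had it without a 3-unit match. In HSP90AA1 the 3-unit match spanned bases -88 to -76 from the start, and HSPA8 had one at -230 to -218 and one at -55 to -43. HSPA1B had its 2-unit match at -105 to -98, and HSPA1A had one at -106 to -99. No match was in the windows of HSPE1 and HSPH1, which says only that these letters are not in those windows. The HSPD1 match, at -245 to -228 from its start, lay 294 to 311 bases from the RefSeq start of HSPE1. It stood at chr2:197500068-197500085, outside the HSPE1 window. The GENCODE start of HSPE1, chr2:197500140, is nearer to this match than the RefSeq start is, and no window was taken from it.

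Between PTX4-OE and EV cells the mean level of each chaperone differed by at most 0.18 on the log2 scale, HSPA1A excepted, and no member passed the test. Libraries of different replicate number lay further apart for most members, though not for DNAJB1. HSPE1 and HSP90AA1 were lowest in replicate 3 of both constructs, HSPD1, HSP90AB1, DNAJA1 and HSPH1 were lower there by less, and HSPA8, HSPA1B and DNAJB1 varied less. PTX4 had 24633, 14398 and 15782 expected counts in PTX4-OE replicates 1 to 3, against 0, 3 and 4 in EV replicates 1 to 3, as the labels say. Libraries held 29670641 to 37718207 expected counts, and values below are normalised CPM, scaled to library size with edgeR's TMM factors, unless they are called TPM. Mitochondrially encoded RNA made up 2.79% of counts in PTX4-OE replicate 1, against 4.75% to 5.91% in the other 5 libraries. THP-1 markers summed to 446 to 565 CPM in PTX4-OE and 517 to 580 CPM in EV libraries. Most of each sum came from SPI1 (205 to 230 CPM) and FCGR1A (104 to 127 CPM). Markers of B cells, T cells, epithelial cells, fibroblasts and erythroid cells each summed to at most 8.32 CPM, with MS4A1, CD3D, CD3E, CD2, CD8A, EPCAM, KRT19, COL1A2, COL3A1, DCN and HBB at 0 in every library.

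Levels of different genes can be compared per length, as deposited TPM, which is scaled by transcript length and library. HSP90AB1, the constitutive cytosolic HSP90, was the most abundant member in all 6 libraries, with 2349, 2182 and 1886 TPM in PTX4-OE replicates 1 to 3 and 2253, 2265 and 1783 TPM in EV replicates 1 to 3. HSPA8, the constitutive HSP70 of the cytosol, came next with a mean of 948.8 TPM over the 6 libraries, and its lowest library (917 TPM) was above the highest of HSPD1 (865 TPM). HSPD1 averaged 729.7 TPM, HSP90AA1 627.8 TPM and HSPE1 463.6 TPM, and the ranges of these 3 overlapped. DNAJA1 averaged 153.0 TPM, below every library of HSPE1. HSPH1 (74.2 TPM) and DNAJB1 (65.5 TPM) overlapped each other, and HSPA1B (43.1 TPM) was below both in each library. HSPA1A was close to the floor, at 0.81 to 1.53 TPM.

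Together the 10 transcripts summed to 6048, 5379 and 4357 TPM in PTX4-OE replicates 1 to 3, against 5847, 5629 and 4098 TPM in EV replicates 1 to 3. The means, 5261 ± 852 TPM in PTX4-OE and 5192 ± 953 TPM in EV cells (SD, n = 3 each), were much closer than the replicates of either construct. HSP90AB1, HSPA8, HSPD1 and HSP90AA1 held 82.7% to 88.2% of that sum. In bulk RNA, fewer cells that express a gene and less RNA per cell cannot be told apart.

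HSPE1, the lid of the mitochondrial chaperonin, had 135, 108 and 46.4 CPM in PTX4-OE replicates 1 to 3, against 139, 119 and 42.0 CPM in EV replicates 1 to 3. Both libraries numbered 3 were below every other library, and the constructs overlapped. Its barrel partner HSPD1 had 1330.0, 1119 and 857 CPM in PTX4-OE cells, against 1311, 1219 and 852 CPM in EV cells. HSPD1 was lowest in the same libraries, by a smaller factor. The ratio of HSPE1 to HSPD1 in TPM was therefore 0.727, 0.685 and 0.389 in PTX4-OE replicates 1 to 3, against 0.772, 0.741 and 0.349 in EV replicates 1 to 3. Its means, 0.601 ± 0.184 in PTX4-OE and 0.621 ± 0.235 in EV (SD, n = 3 each), differed by less than the replicate spread.

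HSPE1 has a short transcript. The effective length implied by the deposited expected counts and FPKM was 273, 276 and 272 bases for HSPE1 in PTX4-OE replicates 1 to 3, and 269, 255 and 277 bases in EV replicates 1 to 3. Pseudogene copies of HSPE1 held at most 0.0617% of the family's counts, the read-through gene HSPE1-MOB4 had 0 to 20.1 counts a library, and HSPE1 had fractional counts in 5 of 6 libraries.

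HSP90AA1, the inducible cytosolic HSP90, had 1879, 1573 and 834 CPM in PTX4-OE replicates 1 to 3, against 1947, 1726 and 744 CPM in EV replicates 1 to 3. HSP90AB1 had 4195, 3884 and 3148 CPM in PTX4-OE cells, against 4089, 4148 and 3067 CPM in EV cells. Both genes were lowest in the libraries numbered 3, HSP90AA1 by the larger factor. The HSP90AA1 to HSP90AB1 ratio in TPM was 0.346, 0.313 and 0.204 in PTX4-OE replicates 1 to 3 and 0.367, 0.321 and 0.187 in EV replicates 1 to 3. Among all genes HSP90AB1 ranked between 80 and 102 by TPM, while HSP90AA1 ranked between 159 and 171 in the 4 libraries numbered 1 and 2, 266 in PTX4-OE replicate 3 and 309 in EV replicate 3.

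**Figure D1:**
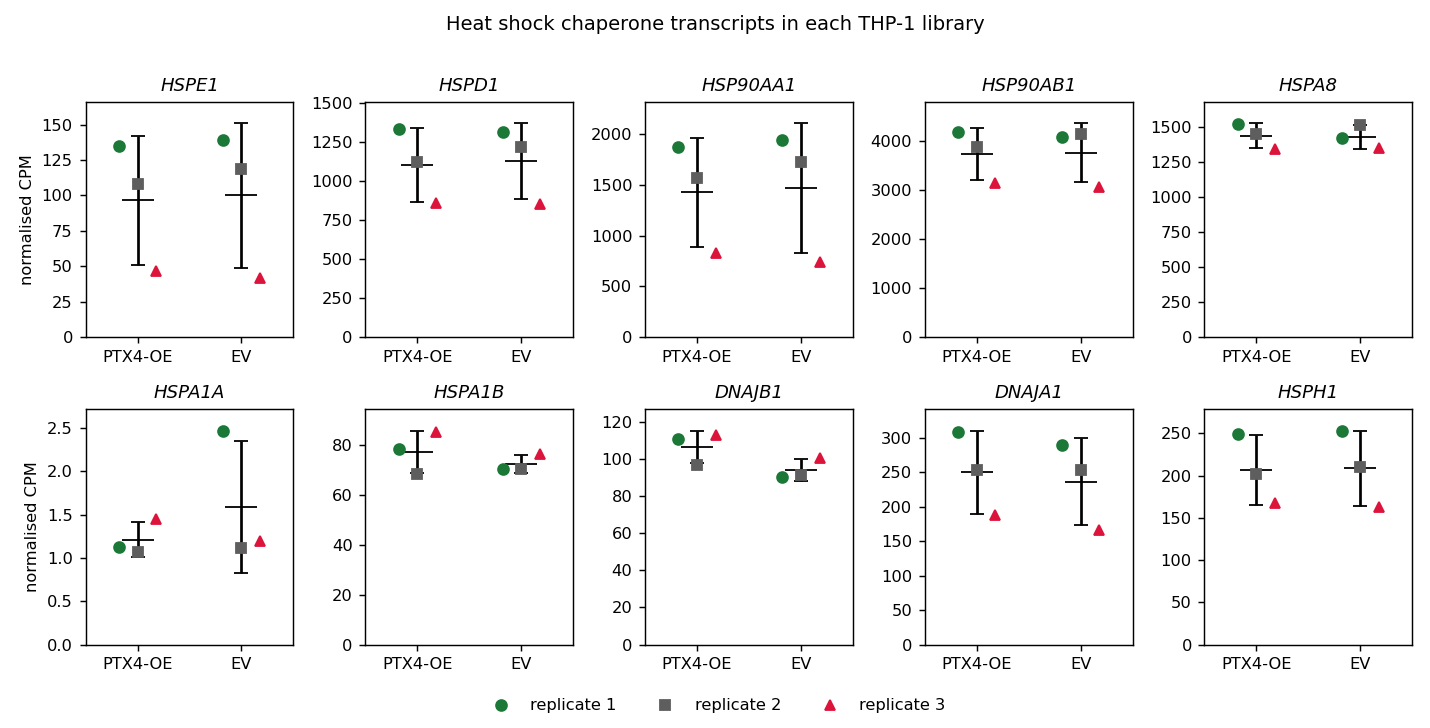
Normalised CPM of each chaperone transcript (vertical axes, each from 0) in the 3 PTX4-OE and 3 EV libraries, with symbols for the replicate number and bars for the mean and SD of each construct. HSPE1 is at 42.0 to 46.4 CPM and HSP90AA1 at 744 to 834 CPM in the replicates numbered 3 of both constructs, while HSPA8, HSPA1B and DNAJB1 vary less.

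HSPA8 had 1521, 1445 and 1339 CPM in PTX4-OE replicates 1 to 3, against 1421, 1512 and 1347 CPM in EV replicates 1 to 3. In CPM the libraries numbered 3 were again the lowest, but by a small margin. In TPM its lowest library was EV replicate 1 (917 TPM), below EV replicate 3 (922 TPM) and PTX4-OE replicate 3 (937 TPM). Its rank among all genes by TPM stayed between 135 and 147. HSPA1B, a strongly heat-inducible HSP70, had 78.1, 68.3 and 85.1 CPM in PTX4-OE cells, against 70.2, 70.1 and 76.2 CPM in EV cells. Its highest value in each construct was that of replicate 3. HSPA1A, its neighbour with almost the same protein, had 1.12, 1.07 and 1.44 CPM in PTX4-OE cells and 2.47, 1.11 and 1.19 CPM in EV cells, which rests on 32.7 to 78.1 expected counts a library.

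The division of reads between HSPA1A and HSPA1B is uncertain. Of the 100-base windows of their transcripts, 72.4% in HSPA1A and 68.9% in HSPA1B were present letter for letter in the other, and both genes had fractional counts in 6 of 6 libraries. Their sum was 79.2, 69.4 and 86.6 CPM in PTX4-OE replicates 1 to 3, against 72.7, 71.2 and 77.4 CPM in EV replicates 1 to 3. HSPA8 had 22.0, 23.9 and 17.7 times the TPM of that pair in PTX4-OE replicates 1 to 3, and 22.4, 24.3 and 20.05 times in EV replicates 1 to 3. For the members other than HSPA1A and HSPA1B, pseudogene copies held at most 0.270% of a family's counts.

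HSPH1, an HSP110 protein that acts as nucleotide exchange factor of HSP70, had 249.5, 202 and 167 CPM in PTX4-OE replicates 1 to 3, against 252, 211 and 162 CPM in EV replicates 1 to 3. DNAJA1, a J-domain partner of HSPA8, had 309, 254 and 188 CPM in PTX4-OE cells, against 289, 253 and 166 CPM in EV cells. Both were lowest in the libraries numbered 3 of each construct. DNAJB1, the heat-inducible J-domain protein known as HSP40, had 111, 96.7 and 113 CPM in PTX4-OE cells, against 90.2, 91.5 and 101 CPM in EV cells, with the highest library of each construct numbered 3. In TPM, DNAJB1 was above HSPH1 in both libraries numbered 3 (77.4 against 64.4 TPM in PTX4-OE and 67.6 against 61.8 TPM in EV) and below it in the other 4.

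**Figure D2:**
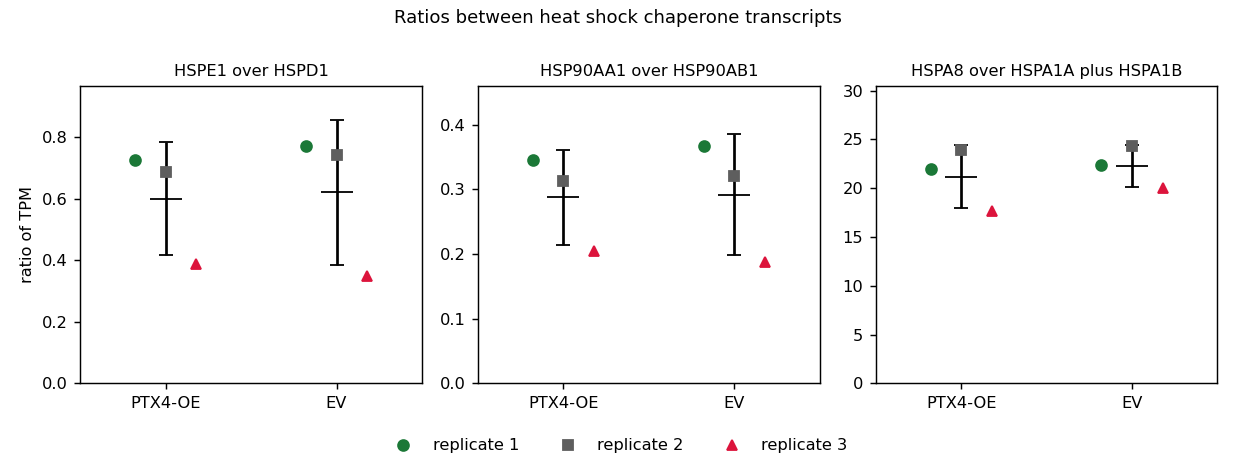
Ratios between chaperone transcripts in deposited TPM (vertical axes, each from 0) in the PTX4-OE and EV libraries, with symbols for the replicate number and bars for the mean and SD of each construct. HSPE1 to HSPD1 is 0.389 and 0.349 and HSP90AA1 to HSP90AB1 is 0.204 and 0.187 in the replicates numbered 3, below the other 4 libraries in both cases.

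The designed comparison asked which transcripts differ when PTX4 is overexpressed. None of the 10 chaperones passed the edgeR quasi-likelihood test at a Benjamini-Hochberg adjusted p under 0.05, where 0.00567% of 17640 tested genes did, which was PTX4 alone. With the replicate number as a block, 0 of 10 members and 0.261% of all genes passed. At an unadjusted p under 0.05 there were 0 members without the block and 1 with it, DNAJB1, beside 131 and 1553 of all genes. DESeq2 and limma-voom, both without the block, called 0 members, and each had 0 members at an unadjusted p under 0.05. The members' median log2 fold change was -0.01 without the block and -0.01 with it, against 0.01 over all tested genes in both. No member had its 3 PTX4-OE libraries all above or all below the 3 EV libraries, an arrangement found in 4.1% of all tested genes.

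With the block, the log2 fold change of HSPE1 was -0.02 (95% interval -0.14 to 0.10), that of HSPD1 -0.03 (-0.16 to 0.09) and that of HSP90AA1 -0.01 (-0.15 to 0.13). These intervals use edgeR's moderated variances, which draw on all genes, and a p above the threshold does not show that the levels were equal. Without the block the standard errors were wider, at 0.51 for HSPE1, 0.41 for HSP90AA1 and 0.10 for HSPA8 and DNAJB1. With it they were 0.055 for HSPE1, 0.066 for HSP90AA1, 0.060 for HSPA8 and 0.051 for DNAJB1. HSPA1B was at 0.09 (-0.02 to 0.21), DNAJA1 at 0.09 (-0.02 to 0.20) and HSPH1 at -0.01 (-0.11 to 0.09). HSPA1A had the widest interval, -0.34 (-0.97 to 0.29).

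DNAJB1 averaged 106.8 ± 8.74 CPM in PTX4-OE cells and 94.2 ± 5.80 CPM in EV cells (SD, n = 3 each). The log2 fold change of DNAJB1 was 0.18 in both fits, with a 95% interval of -0.06 to 0.43 without the block and 0.07 to 0.29 with it. These intervals are not adjusted for the number of genes tested, and the edgeR adjusted p with the block was 0.23. PTX4-OE was above EV within each number, by 0.30, 0.08 and 0.16 on the log2 scale for numbers 1, 2 and 3. DNAJA1 was likewise above EV within each number, by 0.09, 0.0062 and 0.17. How many of all tested genes had 1 direction within all 3 numbers was not counted. For DNAJB1 the groups still overlapped, since its PTX4-OE replicate 2 (96.7 CPM) was below its EV replicate 3 (101 CPM). HSPE1 differed by -0.04, -0.14 and 0.14 within numbers 1, 2 and 3 and HSP90AA1 by -0.05, -0.13 and 0.16, so neither had 1 direction in all 3 pairs.

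**Figure D3:**
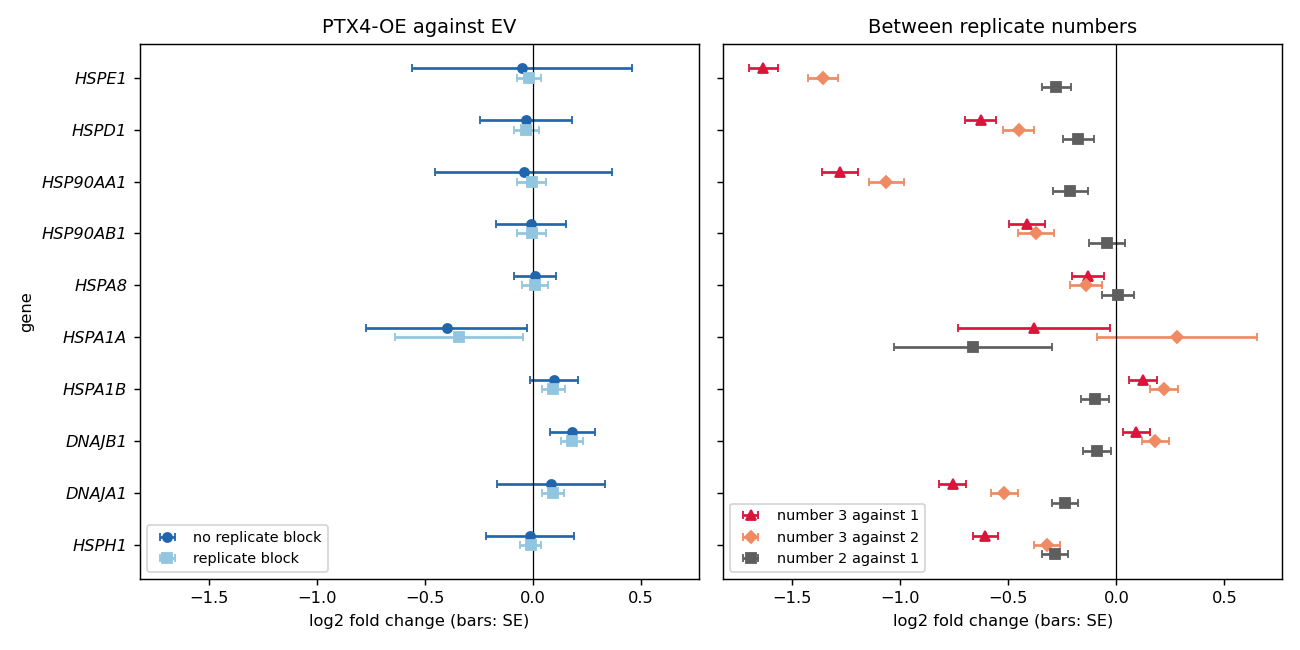
Log2 fold changes (horizontal axis, bars are standard errors) of the 10 chaperones for PTX4-OE against EV without and with the replicate block (left) and between replicate numbers (right). On the left all points but HSPA1A lie within 0.18 of 0. On the right HSPE1 reaches -1.63 and HSP90AA1 -1.28 for number 3 against 1.

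Replicate numbers were compared in a fit with terms for construct and number, in which each number held 1 PTX4-OE and 1 EV library. The members were proposed with these values in view, so the counts describe them and carry no test. For number 3 against 1, 6 of 10 members were called lower, beside 28.7% of all tested genes, and 0 were called higher, beside 25.8% of all. HSPE1 was at -1.63 (SE 0.069) on the log2 scale, or 3.10-fold lower in number 3, and HSP90AA1 at -1.28 (SE 0.083), or 2.42-fold lower. DNAJA1 was at -0.76 (SE 0.062), HSPD1 at -0.63 (SE 0.072), HSPH1 at -0.61 (SE 0.059) and HSP90AB1 at -0.41 (SE 0.084). The other 4 did not pass: HSPA8 at -0.13 (SE 0.074), HSPA1A at -0.38 (SE 0.35), HSPA1B at 0.12 (SE 0.065) and DNAJB1 at 0.09 (SE 0.063). The members' median was -0.51, against 0.03 over all tested genes. Over all genes 4549 were called higher and 5071 lower, against 4891 and 4728 with mitochondrially encoded genes left out and 4593 and 3803 in limma on log2(TPM + 1), and the members called lower numbered 6 in each, with 1 called higher in either alternative.

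Each construct showed these differences by itself, and the difference between constructs was not tested. HSPE1 in replicate 3 minus replicate 1 was -1.54 within PTX4-OE and -1.73 within EV on the log2 scale, and HSP90AA1 was -1.17 within PTX4-OE and -1.39 within EV. HSPD1 was -0.63 within PTX4-OE and -0.62 within EV, and HSP90AB1 was -0.41 within PTX4-OE and -0.42 within EV. HSPA1A, with its few and shared reads, was the exception, at 0.36 within PTX4-OE and -1.05 within EV. In normalised CPM, both libraries numbered 3 were below the other 4 for 7 of 10 members. The exceptions were HSPA1A, HSPA1B and DNAJB1, and 28.2% of all tested genes had this arrangement. For 0 members both were above the other 4, as they were for 27.8% of all. In TPM the first arrangement did not hold for HSPA8, and HSPA1B had both libraries numbered 3 above the other 4. The shares over all genes were taken in CPM only.

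**Figure D4:**
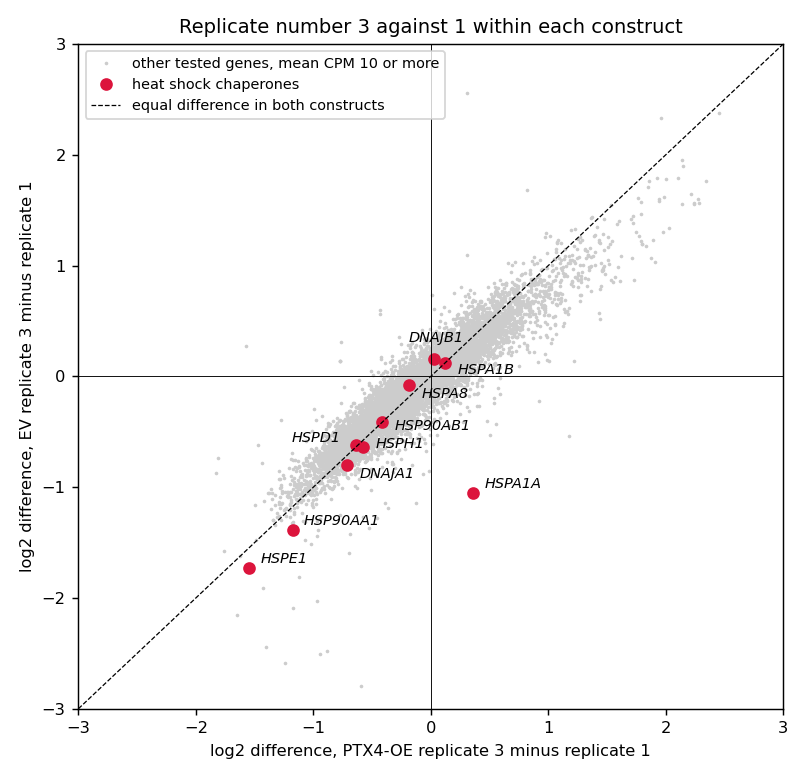
Log2 difference between replicate 3 and replicate 1 within PTX4-OE (horizontal axis) and within EV (vertical axis) for the 10 chaperones and for 9896 other tested genes with a mean of 10 CPM or more. The dashed line marks an equal difference in both constructs. HSPE1 (-1.54 in PTX4-OE and -1.73 in EV) and HSP90AA1 (-1.17 and -1.39) lie near the line, below 0 on both axes. HSPA1B and DNAJB1 lie close to 0, and HSPA1A lies off the line.

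Other features moved with the numbers. Mitochondrially encoded RNA was 4.97% of counts in PTX4-OE replicate 3 and 5.51% in EV replicate 3. It was 2.79% in PTX4-OE replicate 1 and 4.75% in EV replicate 1, and 5.39% in PTX4-OE replicate 2 and 5.91% in EV replicate 2. For number 3 against 1, 7 of 13 mitochondrially encoded mRNAs were called higher and 0 lower, beside 25.8% and 28.7% of all tested genes. For number 2 against 1, 12 were called higher and 0 lower, beside 8.4% and 12.8% of all. For number 3 against 2, 0 were called higher and 2 lower, beside 14.1% and 18.6% of all. They also differed between constructs, with a negative log2 fold change in PTX4-OE against EV for all 13. Their median was -0.29 without the block and -0.32 with it, against 0.01 over all tested genes in both. Without the block 0 were called, and with it 1, MT-ND1 (-0.52), was called lower, beside 0.00567% and 0.261% of all. THP-1 markers summed to 446 and 517 CPM in the libraries numbered 3, against 483 to 580 CPM in the other 4. Of 10 markers, 5 were called lower in number 3 against 1 and 0 higher, beside 28.7% and 25.8% of all tested genes. In PTX4-OE against EV, 0 of the 10 were called without the block. With it 3 were called lower, MNDA (-0.52), MPO (-0.54) and CSF1R (-0.30), and 0 higher, beside 0.261% of all. The part of the mitochondrially encoded RNA and of the markers in the chaperone differences was not tested. With the mitochondrially encoded genes left out before scaling, the members' median was -0.48, 6 members were called lower and 1, HSPA1B, was called higher, as was HSPA1B on log2(TPM + 1).

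For number 2 against 1 the differences were smaller. HSPE1 (-0.28, SE 0.066), HSPH1 (-0.28, SE 0.059) and DNAJA1 (-0.24, SE 0.061) were called lower, 3 of 10 members beside 12.8% of all tested genes, and 0 were called higher, beside 8.4% of all. HSP90AA1 was at -0.21, HSPD1 at -0.18, HSP90AB1 at -0.04 and HSPA8 at 0.01. The members' median was -0.20, against -0.02 over all tested genes. These calls depended on which libraries were in the fit, as each number held 1 PTX4-OE and 1 EV library. The members' median was -0.14 without EV replicate 1, -0.16 without PTX4-OE replicate 1 and -0.25 without EV replicate 2. With 1 library left out in turn it ran from -0.2454 to -0.087.

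For number 3 against 2, 6 of 10 members were called lower, beside 18.6% of all tested genes, and 2 were called higher, beside 14.1% of all. The 6 were those lower in number 3 against 1, led by HSPE1 (-1.36, SE 0.069) and HSP90AA1 (-1.06, SE 0.082). HSPA1B (0.22, SE 0.065) and DNAJB1 (0.18, SE 0.063) were the 2 called higher. The members' median was -0.35, against 0.01 over all tested genes. Of all calls in this contrast, 2495 were higher and 3285 lower. On log2(TPM + 1) the split turned to 2560 higher and 1943 lower, with 2 members higher and 6 lower. Without EV replicate 2, 2865 genes were called, against 5780 with all libraries.

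The other genes of the chaperone network came from 10 lists that hold no member, 105 tested genes of 114 listed, of which 113 had a row under the listed symbol. A gene can stand in more than 1 list. The lists, too, were written with earlier results of these libraries known, and called genes were named by smallest p. Their counts and adjusted p-values between replicate numbers therefore describe them and carry no test. In PTX4-OE against EV, edgeR called 0 of the 105 without or with the block, beside 0.00567% and 0.261% of all tested genes. At an unadjusted p under 0.05 there were 0 and 8, beside 131 and 1553 of all 17640. DESeq2 and limma-voom called 0 of the 105, beside 3 and 0 of all. For number 3 against 1, edgeR called 74 lower and 10 higher, beside 28.7% and 25.8% of all tested genes. Their median on the log2 scale was -0.38, against 0.03 over all. For number 2 against 1 it called 41 lower and 0 higher, beside 12.8% and 8.4% of all (median -0.15). Those 41 were 32 with mitochondrially encoded genes left out and 15 in limma on log2(TPM + 1). For number 3 against 2 it called 53 lower and 5 higher, beside 18.6% and 14.1% of all (median -0.19), and limma on log2(TPM + 1) called 39 lower and 11 higher. All counts by list below are for number 3 against 1, where 28.7% of all tested genes were called lower and 25.8% higher.

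Of the 19 co-chaperones of HSP90 and HSP70, 18 were called lower in number 3 against 1 and 0 higher, beside 28.7% and 25.8% of all tested genes, with a median of -0.62 against 0.03 over all. FKBP4, an immunophilin of steroid receptor complexes, had 192, 157 and 86.7 CPM in PTX4-OE replicates 1 to 3, against 182, 161 and 82.0 CPM in EV replicates 1 to 3 (log2 fold change -1.15, SE 0.060, edgeR adjusted p = 6.077e-09). AHSA1, which stimulates the HSP90 ATPase, had 175, 139.8 and 81.9 CPM in PTX4-OE cells, against 171, 142 and 81.0 CPM in EV cells (-1.09, SE 0.057, adjusted p = 6.077e-09). STIP1, the adaptor that links HSP70 to HSP90, had 385, 321 and 195 CPM in PTX4-OE cells, against 382, 323 and 190.0 CPM in EV cells (-0.99, SE 0.059, adjusted p = 8.307e-09). All 3 had the order of HSP90AA1, lowest in both libraries numbered 3. TOMM34, a co-chaperone at the mitochondrial import route, was at -1.10 (adjusted p = 8.226e-09).

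Both other HSP90 proteins were called lower in number 3 against 1, the mitochondrial TRAP1 at -0.81 (SE 0.060) and the endoplasmic reticulum form HSP90B1 at -0.49 (SE 0.063). Of 11 tested HSP70 and HSP110 genes, 8 were lower and 0 higher, including HSPA14 (-0.91), HSPA2 (-1.23) and the HSP110 member HSPA4 (-0.53). HSPA6, an HSP70 that is strongly induced by heat, had another pattern, with 15.3, 2.31 and 3.07 CPM in PTX4-OE replicates 1 to 3, against 14.2, 2.42 and 1.30 CPM in EV replicates 1 to 3. It was high in both libraries numbered 1 and low in the other 4, at -2.76 (SE 0.21, edgeR adjusted p = 5.661e-08) for number 3 against 1 and -2.64 (SE 0.21, adjusted p = 2.346e-05) for number 2 against 1. HSPA1B, also heat-inducible, was 78.1 CPM in PTX4-OE replicate 1 and 70.2 CPM in EV replicate 1, and its highest library in each construct was the one numbered 3.

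The cytosolic chaperonin TRiC and its prefoldin partners, which fold actin and tubulin, had 12 of 14 genes lower and 0 higher in number 3 against 1 (median -0.49). CCT7 (-0.86), PFDN6 (-0.82), CCT6A (-0.76) and CCT5 (-0.74) were the 4 with the smallest p. Nucleotide exchange factors had 7 of 10 lower and 0 higher, with BAG1 at -0.85, HSPBP1 at -0.70, the mitochondrial GRPEL1 at -0.63 and BAG3 at -0.46. Mitochondrial chaperones and proteases had 14 of 16 lower and 0 higher (median -0.39), including the disaggregase CLPB (-0.79) and the protease subunit CLPP (-0.59).

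Of 25 J-domain proteins 13 were called lower and 6 higher in number 3 against 1, and the 6 are near the 25.8% of all tested genes called higher. DNAJC9, a J-domain protein that binds histones, was at -0.95, DNAJC11 at -0.66 and DNAJC8 at -0.49, while DNAJC1 was at 0.62. Of 9 small heat shock proteins with a row, 3 were tested: HSPB1 was at -0.70 and a mean of 513 CPM, and HSPB7 (1.497) and HSPB6 (0.71) were called higher at means of 0.80 and 1.63 CPM. Heat-inducible targets of HSF1 outside the members had 15 of 19 lower and 2 higher, with the collagen chaperone SERPINH1 at -0.84 beside FKBP4, AHSA1, STIP1 and HSPA6. A 3-unit match stood in the windows of 4 of the 16 that were in the promoter table (25.0%).

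HSF1, the main heat-responsive transcription factor, had 175, 155 and 160.0 CPM in PTX4-OE replicates 1 to 3, against 165, 155 and 163 CPM in EV replicates 1 to 3. Of the 5 tested factors and regulators, 1 was called lower, HSBP1 (-0.66), which binds and restrains HSF1, and 1 higher, HSF2BP (0.60, at a mean of 3.44 CPM), beside 28.7% and 25.8% of all tested genes. The other 3, HSF1 and HSF2 among them, did not pass in number 3 against 1.

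**Figure D5:**
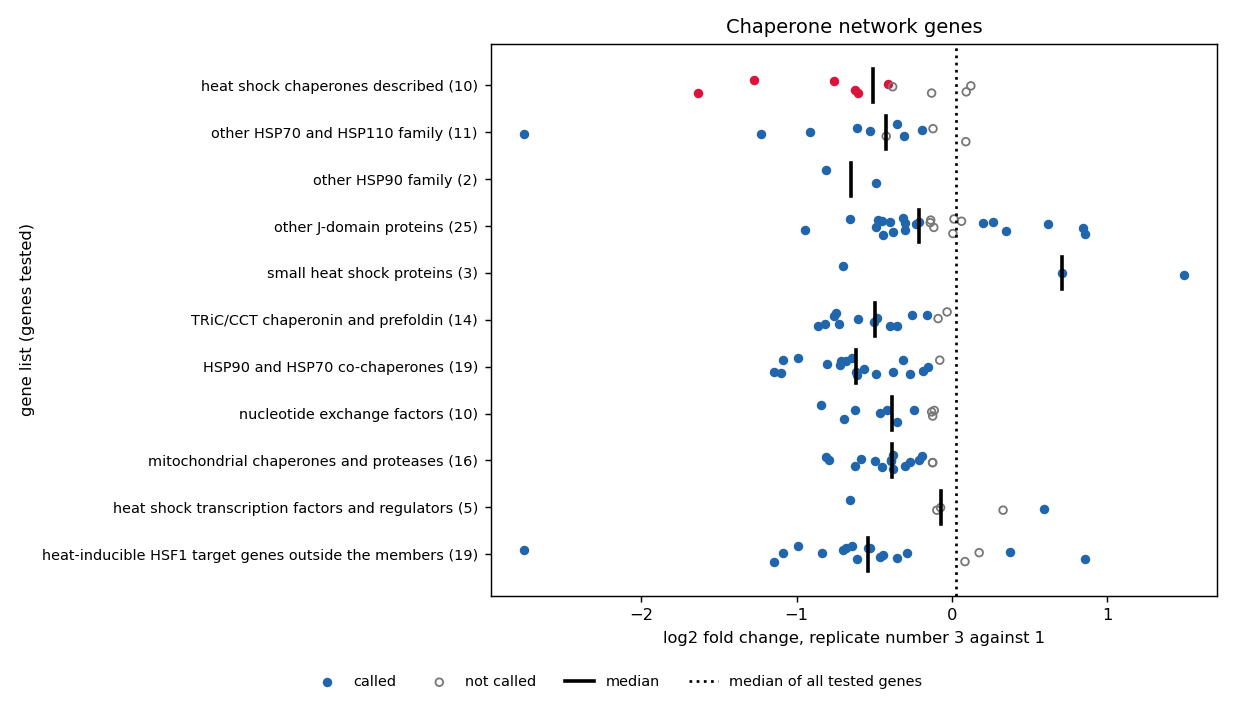
Log2 fold change of number 3 against 1 (horizontal axis) for the 10 chaperones and for the genes of 10 chaperone lists, each point a gene, filled where edgeR called it, with the list's median as a bar and the median of all tested genes as a dotted line. The co-chaperone list lies furthest to the low side among lists of 10 or more genes, with a median of -0.62, and of the 3 tested small heat shock proteins 1 lies on the low side and 2 on the high side.

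The members' mean profile, each gene's log2 CPM centred over the 6 libraries, was 0.23, 0.02 and -0.25 in PTX4-OE replicates 1 to 3 and 0.28, 0.09 and -0.36 in EV replicates 1 to 3. HSPH1 lay closest to it, with a root mean square difference of 0.042 on the log2 scale, followed by HSPD1 (0.057) and HSP90AB1 (0.079), and HSPE1 lay farthest (0.49). Among 9896 other genes with a mean of 10 CPM or more, DBR1 (0.023), PSMB9 (0.026), STK26 (0.027), CASP8AP2 (0.027) and JKAMP (0.028) had the smallest difference from the members' mean over the 6 libraries. DBR1, the enzyme that debranches intron lariats, had 35.6, 30.0 and 25.1 CPM in PTX4-OE replicates 1 to 3 and 34.9, 31.6 and 23.2 CPM in EV replicates 1 to 3. PSMB9, a subunit of the immunoproteasome, had 102, 90.0 and 74.1 CPM in PTX4-OE cells and 105, 90.6 and 70.1 CPM in EV cells. With 6 libraries, closeness of this kind is a description.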

How the data were processed

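RNA was measured in 6 THP-1 libraries, 3 PTX4-OE and 3 EV. Per the submitters' processing notes, the authors used FastQC 0.11.5, STAR and featureCounts with the build GRCh38; other settings and the annotation release are not given in the sources used here. As deposited by the authors, the first table holds expected counts without normalization, of which 7.94% of values are not whole, and 2 further tables hold the authors' TPM and FPKM, which take length and depth into account. Rows of 36521 identifiers carried no symbol of their own and held 1.12% to 1.66% of counts; they stayed in the fits. Expected counts were rounded and tested with edgeR 4.0.16 (R 4.3.3), filterByExpr, TMM factors of 0.954 to 1.05 and Benjamini-Hochberg adjustment over 17640 genes. A gene was called at an adjusted p under 0.05. Each standard error was derived from the F statistic of its fold change. The alternatives used DESeq2 1.42.0 and limma 3.58.1. Python 3.11.15, pandas 2.3.3 and matplotlib 3.10.9 handled tables and plots. The fits were also run on simulated counts with known changes and no other difference between replicate numbers. That setting lacks the replicate spread met by the fit without the block, so it does not show how that fit performs here.

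Depth was 29670641 to 37718207 expected counts a library, and few counts limit the precision of HSPA1A. Between libraries the chi-square over its degrees of freedom was at least 6.53, so each was counted once.

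The main fit had no block. Replicate numbers come from the sample titles. Deviations of same-numbered libraries from their construct's mean correlated at 0.632, 0.131 and 0.698 for numbers 1, 2 and 3, each over the limit of 0.1, so the numbers were taken to pair the libraries; unlike numbers gave -0.642 to 0.117, so PTX4-OE replicate 1 with EV replicate 2 also passed the limit. The biological coefficient of variation was 0.217 without the block and 0.0555 with it.

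The members and lists were chosen with earlier results of these data known. All 10 members are named; from each list, up to 4 called genes with the smallest p, otherwise the 2 with the largest change and a mean of 10 CPM or more; and the 5 genes most like the members' mean profile. Counts for a number contrast compare 1 PTX4-OE and 1 EV library with 1 of each.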

Additional observations from a re-analysis of the deposited data

Results flagged for a closer look

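4 differences between replicate numbers went opposite ways in the constructs, each measured with 1 library of each number and construct, and none of these differences between constructs was tested. HSPA1A in number 3 against 1 was 0.362 on the log2 scale within PTX4-OE and -1.054 within EV, with 56.4 and 40.4 expected counts in PTX4-OE replicates 3 and 1 and 40.3 and 78.1 in EV replicates 3 and 1. For number 2 against 1, HSP90AB1 was -0.1111 within PTX4-OE and 0.0205 within EV, HSPA8 was -0.0738 within PTX4-OE and 0.0898 within EV, and DNAJB1 was -0.1943 within PTX4-OE and 0.0203 within EV. Apart from HSPA1A, these are differences of at most 0.1943 on the log2 scale.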

How the results depend on the processing

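For PTX4-OE against EV, the count of genes called was 1 without the replicate block, 46 with the replicate block (5 higher and 41 lower), 3 with DESeq2, 0 with limma-voom and 2 with no filter on low counts. Leaving out 1 library gave 1 gene in every case without the block, and with the replicate block it was 80 without pair 1, 30 without pair 2 and 208 without pair 3. Members called were 0 throughout. The block changed no call of a member. Leaving out 1 library, the members' median ran from -0.1522 (without EV replicate 3) to 0.1095 (without PTX4-OE replicate 3), and with the block and 1 pair left out from -0.0459 to 0.0451.

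For number 3 against 1, the members' median was -0.3905 on log2(TPM + 1) and -0.6215 to -0.477 with 1 library left out, with 6 to 8 members and 7592 to 9464 genes called. For number 2 against 1, genes called were 2004 with DESeq2, 965 on log2(TPM + 1) and 166 to 3883 with 1 library left out, and members called were 1 on log2(TPM + 1), 5 with limma-voom, 5 with no filter and 0 to 3 with 1 library left out, with a median of -0.2454 to -0.087. For number 3 against 2, the median was -0.2397 on log2(TPM + 1) and -0.4022 to -0.3007 with 1 library left out, with 6 to 9 members and 2865 to 6697 genes called. The cause of these shifts was not tested. Of 550 values of single members under the alternatives, 474 moved by less than 1 spread, 76 by more, and 0 of the called values changed direction. For PTX4-OE against EV, the spread was the SD of a member's differences within each number. For a number contrast it was the SD of the differences within each construct, a gap between constructs that can be near 0. HSP90AB1 in number 3 against 1 was at -0.4144 within PTX4-OE and -0.4151 within EV, so a small shift counted as more than 1 spread. Where a number is left with 1 library, that library is assumed to vary like the others. HSPA1A is limited by depth, at 32.7 to 78.1 expected counts.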
